A study of Mus musculus with 16 samples.

Results

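Long-chain acyl-CoA synthetases are enzymes that join a long-chain fatty acid to coenzyme A, the step that such a fatty acid passes before it is burned, stored or built into a membrane. The set described here held 10 of the 40840 genes counted, the 5 members of the Acsl family (Acsl1, Acsl3, Acsl4, Acsl5 and Acsl6) and 5 fatty acid transport proteins (Slc27a1 to Slc27a5), which carry an acyl-CoA synthetase activity of their own. The members were picked by gene name under a rule that uses no measured value, although earlier results of these data were known when the set was chosen.

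RNA was sequenced from p53-/-; Myc hepatoblasts, a mouse cell line of liver progenitor origin that lacks the tumor suppressor p53, overexpresses the oncogene Myc and serves as a model of hepatocellular carcinoma (HCC). Cells received sorafenib, a multikinase inhibitor used against this cancer, at 8.5 µM, or its vehicle DMSO, and were collected after 48 hours or after 7 days. All 4 groups came from the same line and share its genotype, and each group had 4 libraries, 16 in all. The study asked how sorafenib changes metabolism and mitochondrial function in these cells. Every comparison therefore concerns 1 cell line, and nothing in the labels says that replicates came from separate cultures, so p-values measure only the spread between these libraries. The labels do not say whether the 48-hour and 7-day cultures were handled together, so time in culture and culture run cannot be told apart.

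As background, Acsl members differ in where they sit in the cell and in which fatty acids they prefer. ACSL4 favours arachidonic and adrenic acid, whose incorporation into phospholipids makes membranes prone to the lipid peroxidation that kills cells by ferroptosis, whereas ACSL3 resides on the endoplasmic reticulum and lipid droplets and activates, among others, the monounsaturated oleic acid. In liver, ACSL1 is the main hepatocyte form, ACSL5 is found on mitochondria and endoplasmic reticulum, and the transport proteins encoded by Slc27a2 and Slc27a5 are hallmarks of differentiated hepatocytes.

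The libraries held 16586254 to 30828427 counts. Replicate 2 of sorafenib at 48 hours stood apart. From chromosome 15 onward in genome order, its counts relative to the other replicates of its group were 0.604 times those before that place (log2 step −0.73), while no other library had a step over 0.09. Acsl5 on chromosome 19 and Acsl4 on chromosome X lie in this region, and their 48-hour values are given with and without that library. Among the other members above 10 counts, log2 fold changes of sorafenib against DMSO at 48 hours also shifted without it. They were 1.12 for Acsl1 (1.15 with it), −0.83 for Acsl3 (−0.84), −0.54 for Slc27a1 (−0.48), −1.04 for Slc27a3 (−0.97) and −0.32 for Slc27a4 (−0.26), with the same calls. Of the markers of liver epithelium, Hnf4a had 0 counts in all 16 libraries, Alb at most 1 and Afp at most 14, whereas Krt19 had 865 to 3013 and Dlk1 3488 to 38122. The fibroblast marker Col1a1 had 39863 to 81817 counts, whereas the other fibroblast markers had 48 to 334 (Col1a2), 26 to 473 (Thy1), 147 to 1768 (Pdgfra) and 434 to 2011 (Pdgfrb). Of the blood cell markers, Adgre1 and Cd3e had 0 counts, Ptprc at most 4 and Cd68 from 47 to 91.

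Among the members, 7 had more than 10 counts in at least 1 library and are described in full. Acsl6, Slc27a2 and Slc27a5 never exceeded 6 counts. On GRCm39, Acsl3 lies on chromosome 1 from 78635537 to 78685461 on the plus strand, Acsl4 on chromosome X from 141100840 to 141173789 on the minus strand, Acsl5 on chromosome 19 from 55240267 to 55286153 on the plus strand, and Acsl1 on chromosome 8 from 46924063 to 46990145 on the plus strand. Slc27a1 shares chromosome 8 (72021095 to 72041866, plus strand), Slc27a3 lies on chromosome 3 (90291676 to 90297320, minus strand) and Slc27a4 on chromosome 2 (29692598 to 29710004, plus strand). All are protein-coding genes, and their counts come from exons.

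The stretches upstream of 3 Acsl genes are shown as examples of 3 patterns among the Acsl genes: Acsl3 fell at both times, Acsl4 was called lower at 7 days and not called at 48 hours, and Acsl1 rose at both times. Each is the 250 bases before the outermost start that the GENCODE annotation gives the gene, read 5′ to 3′ on the gene's strand from GRCm39, and so lies outside its exons. That start belongs to 14 of 31 annotated transcripts of Acsl3, 18 of 21 of Acsl4 and only 2 of 43 of Acsl1. Which start these cells use was not tested. Capitals mark matches on either strand to the motifs searched, of which CCAAT (NF-Y), GGGCGG (SP1) and GGAATG (TEAD) were found.
Acsl3, chr1:78635287-78635536, plus strand: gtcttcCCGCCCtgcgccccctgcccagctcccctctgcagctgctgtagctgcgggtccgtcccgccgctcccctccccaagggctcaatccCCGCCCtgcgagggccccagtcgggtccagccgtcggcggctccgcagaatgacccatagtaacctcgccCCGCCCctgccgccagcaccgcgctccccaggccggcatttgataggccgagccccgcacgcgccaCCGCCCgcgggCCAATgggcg
Acsl4, chrX:141173790-141174039, minus strand: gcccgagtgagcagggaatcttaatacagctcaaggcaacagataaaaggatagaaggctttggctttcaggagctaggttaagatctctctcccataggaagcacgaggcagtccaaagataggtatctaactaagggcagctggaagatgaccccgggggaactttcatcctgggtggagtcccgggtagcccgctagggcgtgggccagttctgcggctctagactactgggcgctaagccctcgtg
Acsl1, chr8:46923813-46924062, plus strand: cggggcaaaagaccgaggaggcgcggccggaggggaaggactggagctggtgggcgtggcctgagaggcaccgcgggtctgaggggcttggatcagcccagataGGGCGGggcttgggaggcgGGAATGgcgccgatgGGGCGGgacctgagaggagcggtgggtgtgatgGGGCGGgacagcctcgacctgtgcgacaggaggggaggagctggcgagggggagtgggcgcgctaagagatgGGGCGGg

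The Acsl3 stretch held 4 GGGCGG matches and 1 CCAAT match and was 74.8% G and C. The Acsl1 stretch held 4 GGGCGG matches and 1 GGAATG match at 71.6% G and C. No motif searched matched the Acsl4 stretch, which was 54.8% G and C. No printed matches overlapped each other. Among 32851 stretches of the same length before RefSeq starts, 32.7% held GGGCGG, 33.8% CCAAT and 12.6% GGAATG. The other motifs searched, with the share of those stretches that held them, were CACGTG (E-box, 6.02%), TGATGNAA (ATF4, 3.45%), the PPAR element (a direct repeat, 0.0335%), TGACNNNGC (NRF2, 10.2%) and TGANTCA (AP-1, 6.75%), and none of these matched the 3 stretches. A match is a run of letters, not a measured binding site.

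Values below are normalized counts, the counts of a gene scaled for the depth and composition of each library, and a gene was called when its Benjamini-Hochberg false discovery rate (FDR) over all 20444 tested genes was under 0.05 in edgeR's quasi-likelihood test. At 48 hours, 2 of the 10 members were higher with sorafenib (Acsl1 and Acsl5), 4 were lower (Acsl3, Slc27a1, Slc27a3 and Slc27a4) and 4 were not called, against a background of 54.6% of all tested genes called, 26.9% higher and 27.7% lower. At 7 days, 4 were higher (Acsl1, Acsl5, Slc27a1 and, at 3 counts or fewer, Acsl6), 4 were lower (Acsl3, Acsl4, Slc27a3 and Slc27a4) and 2 were not called, with 56.8% of tested genes called, 28.9% higher and 27.9% lower. Most tested genes were thus called at either time, so these counts on their own say little about the family. The median log2 fold change of the 10 members was −0.37 at 48 hours and −0.15 at 7 days, beside −0.05 and 0.02 over all tested genes. It includes Acsl6, Slc27a2 and Slc27a5, at 6 counts or fewer. For the 7 members above 10 counts the median was −0.26 and −0.30.

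**Figure D1:**
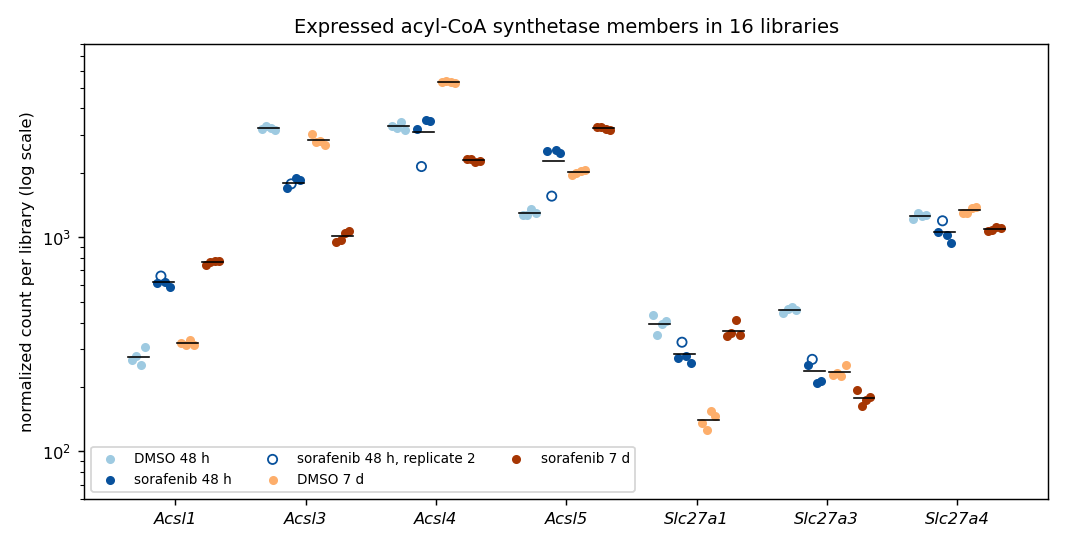
Normalized counts (log axis) of the 7 members with more than 10 counts in a library, 1 point per library, in the 4 groups, with a line at each group mean. The open circle is replicate 2 of sorafenib at 48 hours. Its Acsl4 (2141) and Acsl5 (1558) values lie below those of the other 3 libraries of that group.

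Acsl3 was lower with sorafenib at both times, and at 7 days its fall was the largest of the 7 members above 10 counts. In DMSO at 48 hours its normalized counts were 3207, 3313, 3252 and 3158, and with sorafenib 1701, 1777, 1886 and 1847. At 7 days they were 3051, 2793, 2822 and 2693 in DMSO and 954, 976, 1049.5 and 1073 with sorafenib. The groups did not overlap at either time, as for 48% of all tested genes at 48 hours and 56.8% at 7 days. The log2 fold change was −0.84 (SE 0.0454, edgeR FDR 2.74e-12) at 48 hours and −1.49 (SE 0.0466, FDR 4.30e-16) at 7 days, so that the mean with DMSO was 1.79 and 2.80 times the mean with sorafenib. The response was larger at 7 days, by −0.64 on the log2 scale (SE 0.0646, edgeR FDR 1.21e-07 for the interaction of treatment and time). Among DMSO cells, Acsl3 was slightly lower at 7 days than at 48 hours (log2 fold change −0.19, FDR 0.00135).

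The first exon of Acsl3 is shared, on the same strand, with Utp14b, a gene of ribosomal RNA processing, and the handling of reads that match both genes is not given in the sources used here. Utp14b had 253 to 907 counts and log2 fold changes of −0.82 at 48 hours and −1.40 at 7 days, close to those of Acsl3. Whether reads of one gene entered the count of the other was not tested.

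Acsl4, the form that prefers polyunsaturated fatty acids, behaved differently at the 2 times. At 48 hours its normalized counts were 3323, 3257, 3469 and 3176 in DMSO and 3220.2, 2141, 3535 and 3479 with sorafenib. The groups overlapped, and 2141 belongs to the library with lowered counts on chromosome X. The log2 fold change was −0.09, with a 95% confidence interval from −0.29 to 0.11 (edgeR FDR 0.448), and 0.05 without that library (FDR 0.179). It was therefore not called in either case, and its sign rested on that library.

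At 7 days the picture was clear. Acsl4 had 5304, 5388, 5304 and 5259 normalized counts in DMSO and 2317, 2312, 2247 and 2280.2 with sorafenib. Every sorafenib library was below every DMSO library, and replicates differed by little (SD 53.9 and 32.6, n = 4). The log2 fold change was −1.22 (SE 0.0959, edgeR FDR 9.95e-10), with the DMSO mean 2.32 times the sorafenib mean. The difference between the responses at 7 days and 48 hours was −1.12 (SE 0.135, FDR 1.35e-06), or −1.26 without replicate 2 of sorafenib at 48 hours. Among 10646 genes whose mean reached 100 normalized counts, 5.35% had an interaction at least as large in size.

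Both arms of the comparison moved for Acsl4. In DMSO it rose from 48 hours to 7 days by 0.68 on the log2 scale (SE 0.0944, edgeR FDR 4.15e-06), from a mean of 3306 to 5314. With sorafenib it fell by 0.44 (FDR 0.00105), or by 0.58 without replicate 2 of sorafenib at 48 hours. With all 4 libraries these sorafenib groups overlapped, because that library, at 2141, lay below all 7-day values.

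Acsl5, found on mitochondria and endoplasmic reticulum, rose. At 48 hours its normalized counts were 1267, 1268, 1359.9 and 1306 in DMSO and 2520.0, 1558, 2555 and 2469 with sorafenib. At 7 days they were 1959, 2006, 2036 and 2072 in DMSO and 3276, 3282, 3191 and 3180.3 with sorafenib. The value of 1558 is that of the library with lowered counts on chromosome 19, and it was still above every DMSO library of its time. The log2 fold change was 0.81 (SE 0.0989, edgeR FDR 5.94e-07) at 48 hours, 0.95 without that library, and 0.68 (SE 0.0954, FDR 3.86e-06) at 7 days. The change in response between the times was not called with all libraries (−0.13, 95% confidence interval −0.42 to 0.15, FDR 0.497), but was called without replicate 2 of sorafenib at 48 hours (−0.27, FDR 5.12e-07), the response then being smaller at 7 days. In DMSO, Acsl5 was 0.64 higher on the log2 scale at 7 days than at 48 hours (FDR 1.72e-05).

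Acsl5 overlaps Zdhhc6, a palmitoyltransferase gene, on the opposite strand, and the strand setting of the counting is not given in the sources used here. The log2 fold changes of Zdhhc6 were 0.26 at 48 hours (edgeR FDR 0.0180) and 0.08 at 7 days (FDR 0.484), smaller than those of Acsl5. Zdhhc6 also lies in the region with lowered counts, and its 48-hour value is given only with the affected library.

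Acsl1, the main form of hepatocytes and adipocytes, had the largest rise of the 4 Acsl genes above 10 counts but a low level. Its normalized counts were 267, 280.2, 254 and 308 in DMSO at 48 hours and 610.4, 659, 616 and 586 with sorafenib. At 7 days they were 322, 314, 332 and 313 in DMSO and 742, 767, 776 and 774 with sorafenib. The groups did not overlap at either time. The log2 fold change was 1.15 (SE 0.0572, edgeR FDR 7.45e-13) at 48 hours and 1.25 (SE 0.0543, FDR 7.58e-14) at 7 days, a mean 2.23 and 2.39 times that with DMSO. The change in response between the times was not called (0.11, 95% confidence interval −0.06 to 0.27, FDR 0.334). The largest rise was thus seen in the least abundant of these 4 genes.

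Acsl6, a form of brain and blood cells, had 0 to 4 counts per library. At 7 days it had 0, 1, 0 and 0 counts in DMSO and 1, 3, 3 and 2 with sorafenib, all at or under the 3 counts taken as the floor. It was called there (edgeR FDR 0.0219), as in 21 of 24 settings, but no fold change is given at this depth.

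The transport proteins gave a second pattern. Slc27a1, which encodes FATP1, a fatty acid transporter and synthetase of muscle and fat, changed in opposite directions at the 2 times. Its normalized counts at 48 hours were 435, 349, 392 and 405 in DMSO and 274, 324, 279 and 259 with sorafenib, and each sorafenib library was below each DMSO library. At 7 days they were 135, 126, 155 and 147 in DMSO and 345, 359, 409 and 350.2 with sorafenib, and each sorafenib library was above each DMSO library. The log2 fold change was −0.48 (SE 0.0845, edgeR FDR 5.74e-05) at 48 hours and 1.38 (SE 0.0900, FDR 4.99e-11) at 7 days. The difference between these responses, 1.86 (SE 0.124, FDR 3.02e-10), was the largest of the 7 members above 10 counts, and 1.66% of 10646 genes had one at least as large in size.

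That reversal came mainly with a change in the DMSO cells. In DMSO, Slc27a1 fell by 1.49 on the log2 scale from 48 hours to 7 days (SE 0.0893, edgeR FDR 3.35e-11), from a mean of 395 to 141. With sorafenib it rose by 0.38 (SE 0.0851, FDR 0.00136), from 284 to 366. The level with sorafenib at 7 days (345 to 409) overlapped that with DMSO at 48 hours (349 to 435). Nxnl1, which overlaps Slc27a1 on the opposite strand, had 0 to 5 counts.

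Slc27a3, encoding FATP3, a synthetase with little known part in uptake, was lower with sorafenib at both times. It had 444, 462, 474 and 459 normalized counts in DMSO at 48 hours and 254, 269, 209 and 212 with sorafenib. At 7 days the DMSO libraries had 228, 231, 226 and 252 and the sorafenib libraries 193, 163, 173 and 180.0. The groups did not overlap at either time. The log2 fold change was −0.97 (SE 0.0749, edgeR FDR 7.04e-10) at 48 hours and −0.41 (SE 0.08, FDR 1.95e-04) at 7 days, and the response was smaller at 7 days by 0.57 (SE 0.110, FDR 3.50e-04). In DMSO, Slc27a3 fell by 0.97 from 48 hours to 7 days (FDR 7.63e-10).

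Slc27a4, encoding FATP4, a synthetase of the endoplasmic reticulum for long and very long chains, was the most abundant transport protein per length and had the smallest called changes. Its normalized counts were 1215 to 1298 in DMSO and 944, 1026, 1057 and 1195 with sorafenib at 48 hours, and 1295 to 1390.3 and 1069 to 1115 at 7 days. The log2 fold changes were −0.26 (SE 0.0531, edgeR FDR 3.00e-04) and −0.30 (SE 0.0519, FDR 5.33e-05), and the change between times was not called (−0.04, 95% confidence interval −0.19 to 0.12). A change of at least this size was seen in 59.4% and 52.9% of the genes whose mean reached 100 normalized counts.

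Slc27a2 and Slc27a5, the transporter and the bile acid-CoA ligase of hepatocytes, were near the floor. Slc27a2 had 1 to 4 counts in the DMSO libraries at 48 hours, 0, 2, 0 and 0 with sorafenib, and 0 in all 8 libraries of 7 days, where a count of 0 allows up to 3 counts in a library. Slc27a5 had 0 to 6 counts. Neither was called for sorafenib against DMSO at 48 hours (edgeR FDR 0.151 and 0.664) or at 7 days (FDR 1 and 0.383). Without replicate 2 of sorafenib at 48 hours, whose 2 counts were the only ones of its group, Slc27a2 was called lower at 48 hours (FDR 0.0167). Among the liver epithelium markers, Hnf4a (0 counts), Alb (at most 1) and Afp (at most 14) were low as well. Krt19 (865 to 3013) and Dlk1 (3488 to 38122) of the same list were not. Acsl1, the main hepatocyte form, had 249 to 944 counts.

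**Figure D2:**
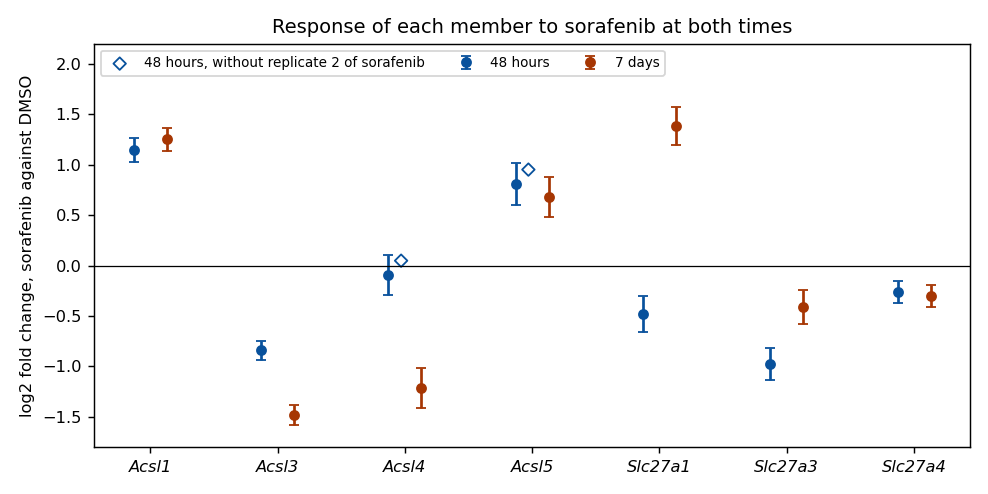
Log2 fold change of sorafenib against DMSO at 48 hours and at 7 days for the 7 members, with 95% confidence intervals from edgeR, and, as open diamonds, the 48-hour values of Acsl4 and Acsl5 without the library with lowered counts. Slc27a1 lies on opposite sides of 0 at the 2 times (−0.48 and 1.38), and the interval of Acsl4 includes 0 at 48 hours only.

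Each called difference of these 7 members between sorafenib and DMSO had p = 0.0286, the smallest this design allows, when the 8 libraries were permuted exactly between the groups (two-sided). This smallest p restates that the 2 groups did not overlap and adds no further support. The groups did not overlap for 48% of all tested genes at 48 hours and 56.8% at 7 days. The same exact permutation test gave p = 0.83 for Acsl4 at 48 hours. By each comparison's own values, 2 members were called in the interaction with a positive sign (Slc27a1 and Slc27a3) and 2 with a negative sign (Acsl3 and Acsl4), where 36.8% of tested genes were called, 15.5% positive and 21.3% negative. That split was 3162 positive and 4353 negative calls, and 4125 and 3292 with libraries scaled by total counts alone, where the sign of each of these 4 members was the same.

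Time in culture moved the members as well. In DMSO, 3 members were higher at 7 days than at 48 hours (Acsl1, Acsl4 and Acsl5) and 5 were lower (Acsl3, Slc27a1, Slc27a3 and, at 4 counts or fewer, Acsl6 and Slc27a2), with 49.4% of tested genes called, 23.9% higher and 25.5% lower. With sorafenib, Acsl1, Acsl5 and Slc27a1 were higher and Acsl3, Acsl4 and Slc27a3 lower, with 39.7% of tested genes called, 17.5% higher and 22.3% lower. Slc27a4 was called in neither (log2 fold change 0.09 with FDR 0.163 and 0.05 with FDR 0.480), but was called in both without replicate 2 of sorafenib at 48 hours (0.09 with FDR 0.0307 and 0.12 with FDR 0.0241).

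To compare genes with each other, normalized counts were divided by the kilobases of exon of each gene. In DMSO at 48 hours, Acsl3 (593 ± 12.1 per kilobase, SD, n = 4) and Acsl4 (556 ± 20.9) stood highest and their ranges overlapped. Acsl5 (219 ± 7.34), Slc27a4 (178 ± 4.82), Slc27a3 (121 ± 3.25), Slc27a1 (38.8 ± 3.52) and Acsl1 (17.1 ± 1.43) followed, each apart from its neighbour. Among 17941 genes with a length, Acsl3 stood at percentile 91.6 and Acsl1 at percentile 39.0.

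With sorafenib at 48 hours, Acsl4 (520.0 ± 109) came first, and its range overlapped that of Acsl5 (383 ± 80.7), which in turn overlapped Acsl3 (331 ± 15). Both overlaps and the wide SDs came from the library with lowered counts. In the other 3 libraries Acsl4 (541 to 594), Acsl5 (415 to 429.6) and Acsl3 (312 to 346) were apart. Below them, Slc27a4 (149 ± 14.7), Slc27a3 (62.4 ± 7.91), Acsl1 (38.0 ± 1.88) and Slc27a1 (27.9 ± 2.74) were apart from each other. Acsl1 had passed Slc27a1 in the order.

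In DMSO at 7 days the order was Acsl4 (893 ± 9.06), Acsl3 (521 ± 27.8), Acsl5 (339 ± 8.04), Slc27a4 (189 ± 6.73), Slc27a3 (61.9 ± 3.19), Acsl1 (19.7 ± 0.538) and Slc27a1 (13.8 ± 1.23), each apart from the next. With sorafenib at 7 days, Acsl5 (544 ± 9.05) led, followed by Acsl4 (385 ± 5.47), Acsl3 (186 ± 10.5), Slc27a4 (154 ± 3.02), Acsl1 (47.0 ± 0.949), Slc27a3 (46.9 ± 3.35) and Slc27a1 (35.9 ± 2.89). Acsl3, which led in DMSO at 48 hours, stood below both Acsl5 and Acsl4 here, whereas Acsl5 stood below both in the DMSO groups. Acsl1 and Slc27a3 overlapped in that group.

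The order of some neighbours depended on the length used. Per kilobase of the longest transcript, Acsl1 was at 38.6 in DMSO at 48 hours, against 17.1 per kilobase of exon. With sorafenib it stood above Slc27a3 at 48 hours, overlapping it (86.0 and 73.5), and apart from it at 7 days (106 and 55.2). On that scale Acsl3 and Acsl4 were apart in DMSO at 48 hours (801 and 574), and Slc27a3 and Slc27a1 overlapped with sorafenib at 7 days.

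**Figure D3:**
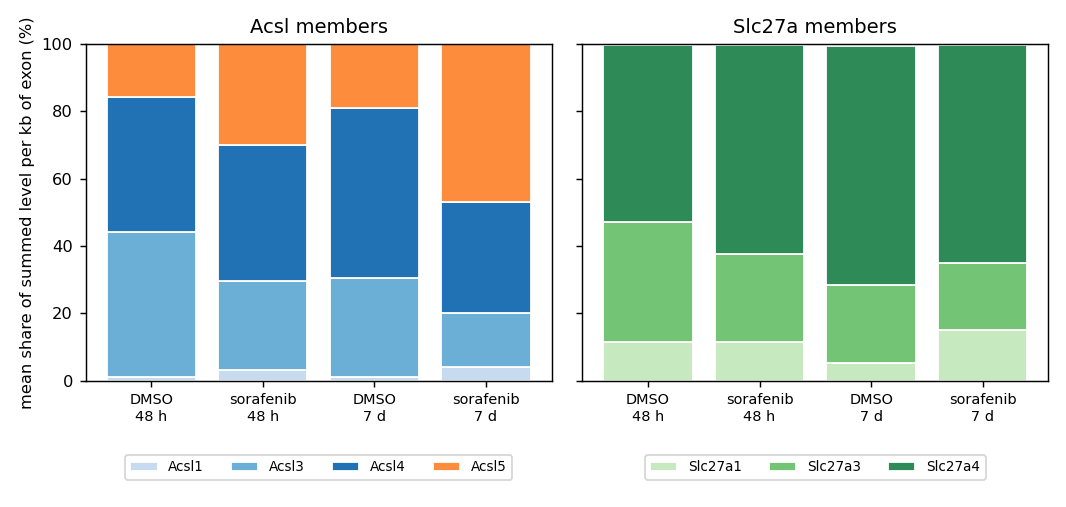
Mean share (%) of each expressed gene in the summed level per kilobase of exon of the 5 Acsl genes (left) and the 5 Slc27a genes (right), in the 4 groups, 4 libraries each. Acsl5 takes 15.8% and 19.2% in the DMSO groups and 46.8% with sorafenib at 7 days.

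Expressed as shares of the summed Acsl level per kilobase, Acsl5 took a larger part of the family with sorafenib at both times, while the part of Acsl3 was smaller at both times and that of Acsl4 at 7 days. Acsl3 made up 42.8% ± 0.805 (SD, n = 4) of it in DMSO and 26.5% ± 4.35 with sorafenib at 48 hours (24.3% without the library with lowered counts), and 29.4% ± 1.21 and 16% ± 0.933 at 7 days. Acsl5 made up 15.8% ± 0.424 and 29.9% ± 2.42 at 48 hours (31.0% without that library), and 19.2% ± 0.691 and 46.8% ± 0.685 at 7 days. Ranges did not overlap in any of these 4 pairs. The share of Acsl4 at 48 hours was 40.1% ± 0.747 in DMSO and 40.6% ± 2.84 with sorafenib, and the groups overlapped only through the library with lowered counts at 36.4%. The other 3 sorafenib libraries, at 41.2% to 42.5%, lay above the DMSO libraries, which reached 40.9%. At 7 days the share of Acsl4 was smaller with sorafenib (50.4% ± 0.642 and 33.1% ± 0.371), the largest loss of share at that time. Acsl1 had 1.23% and 3.07% at 48 hours (2.72% without that library) and 1.11% and 4.05% at 7 days. Its share depended on the length used, and with the longest transcript in place of all exons it was 2.27% and 5.56% at 48 hours and 2.10% and 7.18% at 7 days, higher with sorafenib in either case. Shares add up to a fixed sum, so a rise of one lowers the others.

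The summed Acsl level per kilobase was 1385 ± 30.0 in DMSO and 1271 ± 193 with sorafenib at 48 hours (1366 ± 47.3 without the library with lowered counts), and 1773 ± 22.4 and 1161 ± 5.04 at 7 days. The groups of 7 days did not overlap, whereas those of 48 hours did. The summed level of the transport proteins was 339 ± 4.96 and 239.7 ± 24.5 at 48 hours (229 ± 14.1 with sorafenib without that library), and 266 ± 9.80 and 238 ± 5.44 at 7 days. Slc27a4 held 52.4%, 62.2%, 71.0% and 64.8% of it. RNA levels give no enzyme amount or activity, and in bulk samples fewer cells of a kind and less RNA per cell cannot be told apart.

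The ratio of Acsl4 to Acsl3 per kilobase was 0.937 ± 0.0335 in DMSO at 48 hours and 1.57 ± 0.311 with sorafenib. The sorafenib libraries had 1.73, 1.10, 1.72 and 1.73, of which 1.10 is the library with lowered counts, and the mean without it was 1.73. At 7 days the ratio was 1.72 ± 0.0879 in DMSO and 2.08 ± 0.143 with sorafenib. Each sorafenib library lay above each DMSO library of its time. At 48 hours the ratio followed the lower Acsl3, and at 7 days both genes were lower, Acsl3 by more.

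The ratio of Acsl5 to Acsl4, both in the region with lowered counts, was 0.394 ± 0.0127 in DMSO and 0.736 ± 0.0322 with sorafenib at 48 hours, and 0.380 ± 0.0113 and 1.41 ± 0.0119 at 7 days. Here replicate 2 of sorafenib at 48 hours had 0.728, within the 0.710 to 0.783 of its group. The ratio of Slc27a1 to Slc27a4 was 0.219 ± 0.0255 and 0.187 ± 0.00477 at 48 hours, where the ranges overlapped, and 0.0728 ± 0.00440 and 0.233 ± 0.0154 at 7 days.

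**Figure D4:**
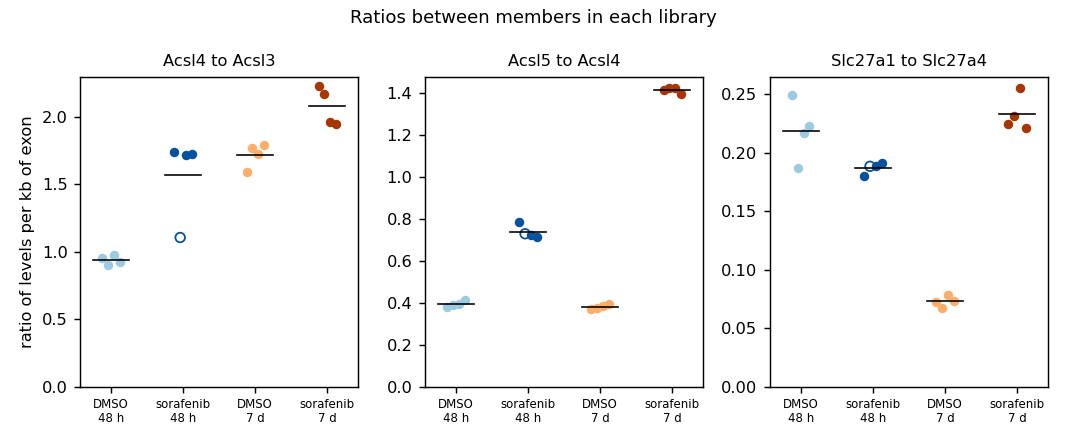
Ratios of levels per kilobase of exon between members, 1 point per library and a line at each group mean. The open circle is replicate 2 of sorafenib at 48 hours, which stands apart for Acsl4 to Acsl3 (1.10) and not for Acsl5 to Acsl4 (0.728).

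By the correlation of log2 normalized counts over 15 libraries (without the library with lowered counts, 10645 genes whose mean reached 100), the genes most like Acsl3 were Plxnb2 (Pearson r = 0.997), Alcam (0.996) and Col6a2 (0.996). Those most like Acsl4 were Man1a (0.995), Trib2 (0.993) and St3gal1 (0.991), whose log2 fold changes at 48 hours were 0.11, 0.01 and −0.08 and at 7 days −1.53, −1.72 and −2.94. These libraries share the 4 groups, which set most of the variation, and the values are a description.

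Genes around the synthetases were grouped by role, and their counts are read against the same shares of called genes. Of 9 tested other acyl-CoA synthetases, 1 was higher and 3 were lower at 48 hours, and 3 and 3 at 7 days. Slc27a6, the transport protein outside the set, rose at 48 hours from 90.6 ± 15 to 311 ± 83.3 normalized counts (log2 fold change 1.79, or 1.95 without the library with lowered counts, in whose region it lies). At 7 days the log2 fold change of Slc27a6 was 0.44 (edgeR FDR 0.0324). Acss2, the cytosolic acetyl-CoA synthetase, fell at both times (−0.63 and −0.75), as did Aacs, the acetoacetyl-CoA synthetase (−0.15 and −0.55).

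Acyl-CoA thioesterases undo the reaction of the synthetases by releasing the fatty acid. Of 12 tested, 7 were higher and 1 was lower at 48 hours, and 9 were higher (8 without replicate 2 of sorafenib at 48 hours, Acot10 then losing its call) and 1 lower at 7 days, with a median log2 fold change of 0.35 and 1.22. The mitochondrial Acot2 rose from 186 ± 20.9 to 1261 ± 23.8 normalized counts at 48 hours (log2 fold change 2.76, edgeR FDR 1.44e-18) and from 134 ± 7.37 to 899.7 ± 9.37 at 7 days (2.75). Acot9 rose at 48 hours (1.56, or 1.72 without the library with lowered counts) and at 7 days (1.06). Them4 rose at both times (1.32 and 1.49). Acot1, which fell at both times (−1.08 and −1.09), is a close paralog of Acot2, and reads that match both genes could be split between them. Acot6, Acot10 and Acot11, counted as higher at 7 days, had at most 47, 7 and 32 counts. Acot10 and Acot11 were also counted as higher at 48 hours.

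Of 12 tested genes of fatty acid and acyl-CoA uptake and binding, 4 were higher and 2 lower at 48 hours, and 4 and 6 at 7 days. Without the library with lowered counts 3 were higher at 48 hours, Fabp3 then losing its call (edgeR FDR 0.150). Dbi, the acyl-CoA binding protein, fell from 3505 ± 93.2 to 1376 ± 65.6 normalized counts at 48 hours (log2 fold change −1.35) and from 2746 ± 70.1 to 993 ± 47.1 at 7 days (−1.47). Cav1, the main protein of caveolae, rose at both times (1.65 and 1.21), as did Acbd4, another acyl-CoA binding protein (1.05 and 1.39).

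For the entry of acyl-CoA into mitochondria and peroxisomes, 1 of 8 tested genes was higher and 4 were lower at 48 hours, and 2 and 2 at 7 days. Cpt1a, the liver form of carnitine palmitoyltransferase, fell by 0.80 at 48 hours (0.67 without the library with lowered counts, in whose region it lies) and by 0.35 at 7 days. Cpt1c, a brain form, fell by 1.05 at 48 hours, whereas its log2 fold change at 7 days was 0.23 (edgeR FDR 0.0685), called higher without replicate 2 of sorafenib at 48 hours (FDR 0.0183), which made 3 higher genes at that time. Slc25a20, the carnitine-acylcarnitine carrier, fell by 0.45 at 48 hours and by 0.39 at 7 days. For the entry into glycerolipids and sterol esters, 8 of 13 were higher and 2 lower at 48 hours, and 6 and 2 at 7 days. Without the library with lowered counts, 3 were lower at 48 hours (Dgat2 gaining a call, edgeR FDR 2.49e-04). At 7 days 7 were then higher (Soat1 gaining a call, FDR 0.0217). The acyltransferases Agpat2 (0.73 at 48 hours and 0.92 at 7 days) and Agpat4 (0.98 at 48 hours, or 1.09 without that library, and 1.66 at 7 days) rose. Agpat5 fell by 0.59 at 48 hours and by 1.03 at 7 days.

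The list of polyunsaturated phospholipid synthesis and peroxidation, the pathway in which ACSL4 acts, had the most genes with lower levels. Of 13 tested genes, 10 were lower at 48 hours (9 without the library with lowered counts, Alox12, at 5 counts or fewer, then losing its call) and 10 at 7 days. Higher were Agps and Cyb5r1 at 48 hours and Cyb5r1 at 7 days. Fads2, the delta-6 desaturase, fell at 7 days from 16436 to 3076 normalized counts (log2 fold change −2.42). At 48 hours it fell as well (−1.45, or −1.31 without the library with lowered counts, in whose region it lies). Por, a reductase that takes part in phospholipid peroxidation, fell from 4222 to 1469 at 48 hours (−1.52) and from 3470 to 1396 at 7 days (−1.31). Cyb5r1, a reductase ascribed the same role, instead rose from 1069.7 to 4689 at 48 hours (2.13) and from 1274 to 5236 at 7 days (2.04). Acsl4 itself, not counted in the list, was called lower at 7 days and not called at 48 hours. Of the 4 genes of monounsaturated phospholipid synthesis, the acyltransferase Mboat1 was higher at both times, the desaturases Scd1 and Scd2 were lower at both times, and Mboat2 was lower at 48 hours. Scd1 and Scd2 are close paralogs and lie in the region with lowered counts.

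Of 10 nuclear receptors, cofactors and other regulators of fatty acid genes, 2 were higher and 5 lower at 48 hours, and the numbers were the same at 7 days. Srebf1, a transcription factor of fatty acid synthesis, fell by 0.78 and 0.96. Rxrb fell by 0.80 at 48 hours, or by 0.68 without the library with lowered counts, and by 0.21 at 7 days. Pparg, the receptor of fat cells, rose at 7 days from 75.3 ± 3.92 to 140.3 ± 17.1 normalized counts (log2 fold change 0.91). At 48 hours it rose as well, from 46.9 ± 2.01 to 125 ± 7.88 (1.42).

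**Figure D5:**
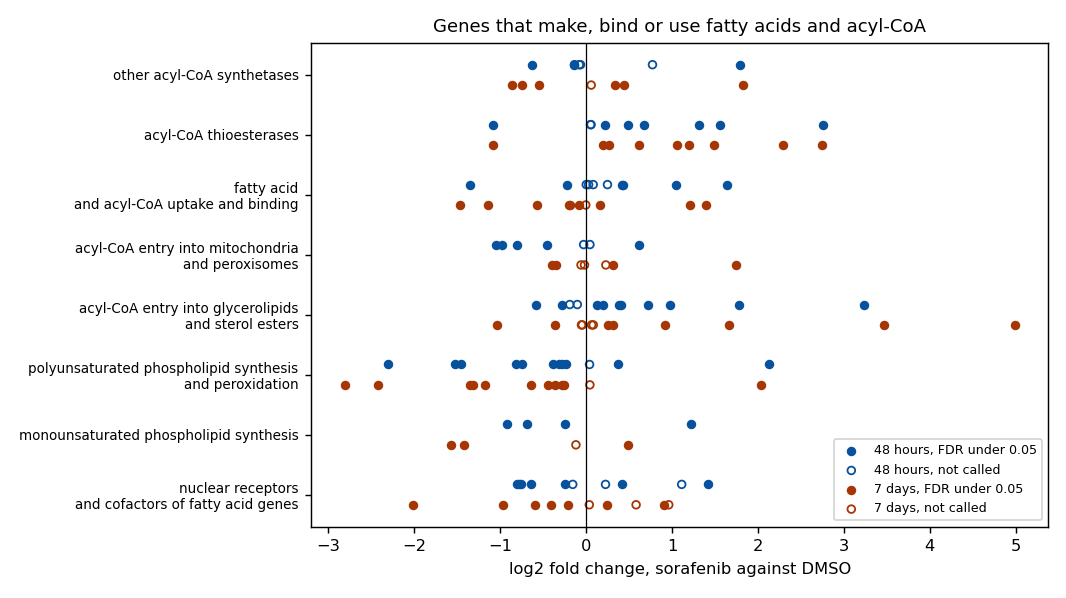
Log2 fold changes of sorafenib against DMSO at 48 hours and 7 days for 71 genes around the synthetases that had more than 10 counts in a library, 1 point per gene, grouped by role, with filled points for FDR under 0.05. Most thioesterases lie right of 0, and of the plotted genes of polyunsaturated phospholipid synthesis and peroxidation, 9 were called lower at 48 hours and 10 at 7 days.

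Cell type markers moved with the treatment as well. The summed normalized counts of the 8 markers of hepatoblasts and liver epithelium ranged from 34624 to 35976 in DMSO and from 11655 to 13328 with sorafenib at 48 hours, and from 17966 to 19822 and 5149 to 5364 at 7 days. Most of each sum was Dlk1, whose means were 32234 in DMSO and 10444 with sorafenib at 48 hours, and 16766 and 4020 at 7 days. Of the 6 tested, 5 were lower at 48 hours and 6 at 7 days. The summed normalized counts of the 5 fibroblast markers, all tested, ranged from 43699 to 46456 and from 80011 to 86528 at 48 hours. At 7 days they ranged from 42354 to 44883 and from 52650.4 to 54601. Nearly all of each sum was Col1a1, with means of 41939 and 81072 at 48 hours and 42221 and 52228 at 7 days. At both times 3 were higher (Col1a1, Col1a2 and Thy1) and 2 lower (Pdgfra and Pdgfrb). Of all tested genes, 26.9% and 28.9% were higher at the 2 times, and 27.7% and 27.9% lower. The 4 endothelial markers summed to 55.7 to 98.0 in DMSO and 119 to 151 with sorafenib at 48 hours, and to 36.8 to 61.3 and 196 to 228 at 7 days. Of the 3 tested, Kdr was higher at both times (log2 fold change 1.32 and 2.65) and Tek, at 25 counts or fewer, lower at both times, while Pecam1 and Cdh5 had at most 9 and 2 counts. The 4 blood cell markers summed to at most 88.1, and Cd68, the only one tested, was called at neither time. The part of these shifts in the member results was not tested.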

How the data were processed

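Counts per gene for 16 libraries (Illumina Stranded mRNA Prep, NovaSeq) were analysed as deposited. Per the labels' processing notes, the authors aligned reads to GRCm39 with STAR 2.7.1a, counted them with featureCounts 2.0.6 and used DESeq2 1.40.2. The annotation and the strand setting of the counting are not given in the sources used here. The deposited counts are whole numbers, not normalized, so depth (16586254 to 30828427 counts) sets their precision.

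All 16 libraries entered 1 edgeR 4.0.16 model (R 4.3.3) of the 4 groups, with TMM normalization, genes with at least 10 counts in total (20444), the quasi-likelihood test and Benjamini-Hochberg adjustment over all tested genes, with calls at FDR under 0.05. The interaction is the 7-day response minus the 48-hour response. Levels between genes were divided by the summed exon length of the GENCODE annotation on GRCm39, to which 32251 of 40840 genes matched by name. Upstream stretches were read from GRCm39. Alternatives were DESeq2 1.42.0, other scalings, filters and lengths, 2-group fits, a replicate block, an offset for the lowered library and leaving out each library. The script was tested on simulated data.

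The members and gene lists were chosen with earlier results of these data known. Genes outside the set were named from each list when called, with a mean of 100 or more normalized counts and among the 2 largest changes at a time. Acot1, Acot6, Acot10, Acot11, Agps and Alox12 were named after their values were seen. Counts of the lists, and levels and shares of the members, without replicate 2 of sorafenib at 48 hours were added after seeing the data.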

Additional observations from a re-analysis of the deposited data

Results flagged for a closer look

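The response to sorafenib differed between 7 days and 48 hours for 4 members by the interaction of treatment and time in edgeR. On the log2 scale the 7-day response minus the 48-hour response was −0.64 for Acsl3, −1.12 for Acsl4, 1.86 for Slc27a1 and 0.57 for Slc27a3. For Acsl3 the fall was larger at 7 days, for Acsl4 it was called at 7 days only, for Slc27a1 the direction turned, and for Slc27a3 the fall was smaller.

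Among the 4 sorafenib libraries of 48 hours, 1 value of Acsl5 (1558, replicate 2) lay far from the others, with a gap of 0.931 of the whole range and so above the critical value of Dixon's test at the 95% level. It is the library with lowered counts from chromosome 15 onward. In all, 28 groups of 4 libraries were tested, and chance sets apart about 1 group in 20.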

How the results depend on the processing

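Of 833 recomputed values of the 7 members above 10 counts, 821 kept their direction and their side of the threshold. For Acsl4 at 48 hours the sign turned with an offset for the lowered library (0.059) and without it (0.0488), neither called, and leaving out each library gave −0.19 to 0.0488. The change in response of Slc27a4 turned sign with total counts (0.0556), with at least 10 counts in every library (0.0282), without replicate 1 of DMSO at 48 hours (0.00514) and without replicate 2 of sorafenib at 48 hours (0.0251), never called, and leaving out each library gave −0.058 to 0.0251. That of Acsl5 was called with the offset (−0.28) and without the lowered library (−0.27). Acsl1 over time in DMSO lost its call with total counts (0.15, edgeR FDR 0.0731). Slc27a4 over time was called in DMSO with only the 2 groups compared (0.10) and without the lowered library (0.09), and with sorafenib without it (0.12). Beyond the lowered library, the cause was not tested. With the longest transcript as gene length the Acsl4 to Acsl3 ratio was 0.716 and 1.20 at 48 hours (DMSO and sorafenib) and 1.31 and 1.59 at 7 days, and the level and share of Acsl1 were over 1.5 times as large in all 4 groups.

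Numbers of called genes stayed within 1.5 times those given. Leaving out each library gave 10609 to 11608 at 48 hours, 10981 to 12590 at 7 days, 7073 to 8761 for the interaction, 9419 to 11242 over time in DMSO and 7355 to 9047 with sorafenib. Deviations of same-numbered libraries had correlations of −0.05 to 0.01 at 48 hours and −0.01 to 0.12 at 7 days. Those of differently numbered libraries were −0.04 to 0.07 and −0.16 to 0.11. At 7 days the means were 0.07 and −0.02. Such weak correlations cannot settle whether same-numbered libraries were handled together. With the replicate block 10644, 11027, 6987, 9871 and 7809 genes were called, and no call of these 7 members changed. Depth limits Acsl6, Slc27a2 and Slc27a5, at 6 counts or fewer.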
